A study of Mus musculus with 24 samples.

Results

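The genes described here encode the main granule proteins of eosinophils and the ribonucleases that these cells store. The symbols Prg2, Epx, Ear6, Ear1, Ear2 and Rnase2a were looked up in the annotation of a mouse expression array, and every probe listed for them was taken. This gave 4 probes among the 45281 on the array, 1 each for Prg2, Epx, Ear6 and Rnase2a, which are 4 of the 19057 named genes on it. No probe was listed for Ear1 or Ear2, so their levels were not analysed here.

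Messenger RNA was measured on 24 Illumina WG-6 v2 bead arrays, read in 1 colour, in bone marrow cells of mice of 2 inbred strains, C57Bl/6 (B6) and DBA2 (D2). From each strain 4 sorted fractions were hybridised, with 3 arrays for each of the 8 groups. These were LSK cells (without lineage markers, with Sca-1 and c-Kit), which hold the stem cells, committed L-S-K+ progenitors (the same without Sca-1), Gr1+ myeloid cells and Ter119+ erythroid cells. The labels give neither age nor treatment. Nor do they state that replicates are different mice, so errors and p-values reflect only how far these arrays scatter, which may be technical.

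Eosinophils develop in the bone marrow from granulocyte progenitors and fill their granules with toxic, strongly basic proteins while they mature. Major basic protein 1 (Prg2) forms the crystalline core of the granule, and eosinophil peroxidase (Epx) makes oxidants from hydrogen peroxide and halides. The eosinophil-associated ribonucleases (Ear genes, with Rnase2a, also named Ear11) belong to the ribonuclease A family, are related to human eosinophil cationic protein and eosinophil-derived neurotoxin, and have multiplied in rodents into a cluster of closely similar copies.

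On the mouse assembly GRCm38.p6 of RefSeq, Prg2 lies on chromosome 2 at 84980461 to 84983632 and Epx on chromosome 11 at 87863997 to 87875536. The 4 ribonuclease genes lie on chromosome 14, Ear1 at 43818765 to 43819639, Ear2 at 44102654 to 44103531, Rnase2a at 51255261 to 51256112 and Ear6 at 51853768 to 51854643. Of the 6 symbols 5, all but Prg2, matched a RefSeq promoter window of 250 bases before to 50 bases after the gene start. The windows of Ear6 and Rnase2a are shown because these neighbours in the family had unlike patterns in the arrays, and that of Epx as the granule protein outside the family. They are the sequence of the C57BL/6J reference, and D2 sequence was not used here. In the first and second lines the capitals mark the longest run of bases that Ear6 and Rnase2a share, 56 bases long, and in the last line they mark the only match to TATAA.
Ear6, chr14:51853518-51853817, plus strand: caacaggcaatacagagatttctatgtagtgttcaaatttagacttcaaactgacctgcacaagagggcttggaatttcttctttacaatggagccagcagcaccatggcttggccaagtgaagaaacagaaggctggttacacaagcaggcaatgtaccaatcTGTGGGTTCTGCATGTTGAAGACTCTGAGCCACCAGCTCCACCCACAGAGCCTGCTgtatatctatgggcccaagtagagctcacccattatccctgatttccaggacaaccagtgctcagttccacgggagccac
Rnase2a, chr14:51256063-51256362, minus strand: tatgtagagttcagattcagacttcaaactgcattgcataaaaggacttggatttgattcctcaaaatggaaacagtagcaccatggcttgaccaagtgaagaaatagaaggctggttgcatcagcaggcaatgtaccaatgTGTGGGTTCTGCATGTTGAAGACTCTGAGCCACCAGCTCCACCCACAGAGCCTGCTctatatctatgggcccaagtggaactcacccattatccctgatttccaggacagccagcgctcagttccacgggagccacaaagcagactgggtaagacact
Epx, chr11:87875487-87875786, minus strand: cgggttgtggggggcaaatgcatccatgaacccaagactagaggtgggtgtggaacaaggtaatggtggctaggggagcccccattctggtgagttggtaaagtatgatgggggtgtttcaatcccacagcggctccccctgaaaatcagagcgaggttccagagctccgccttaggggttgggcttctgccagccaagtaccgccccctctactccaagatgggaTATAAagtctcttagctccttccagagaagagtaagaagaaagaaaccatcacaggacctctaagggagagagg

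The shared run begins 86 bases before the gene start in Ear6 and 108 bases before it in Rnase2a. In a global alignment the 2 windows were identical at 89.57% of 278 aligned bases. The windows of Ear1 and Ear2 were identical at 98.99% of 297 bases, while Epx matched the 4 ribonuclease genes at 59.16% to 63.24%. Bases set against gaps are left out of these shares. Unrelated windows were not aligned for comparison, so the Epx values do not show a likeness. All 4 ribonuclease windows hold the run TTATCCCTGATTTCCAGGACA, which opens with the only match to GATAA (on the reverse strand) in each of them. Epx has no match to GATAA. On both strands, GATAA occurs in 25.4% and TATAA in 24.9% of all 32851 promoter windows in the table, and none of these matches in the member windows overlapped another. A match is a description of the letters only. The sequences of the array probes were not used here, so it was not tested whether the probes of Ear6 and Rnase2a also capture RNA of other copies, Ear1 and Ear2 included, or lie on a base that differs between the strains.

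All levels below are log2 intensities after background correction and quantile normalisation over the 24 arrays, and a probe counts as detected on an array where its detection p was under 0.01. The share of probes detected ran from 12.6% to 27.4% of an array, and was lowest on D2 LSK replicate 2 (12.6%) and D2 progenitor replicate 1 (17.5%). Arrays of 1 group correlated with each other at r of 0.9203 to 0.9898. The Ter119+ and Gr1+ sorts carried the markers of their labels: all 9 measured erythroid genes were higher in Ter119+ than in Gr1+ cells, and all 11 measured late neutrophil genes were higher in Gr1+ than in Ter119+ cells, with limma's moderated test at an adjusted p under 0.05. All 4 member probes were among the 12668 probes kept, which needed detection on every array of at least 1 group. Epx passed this only through the Ter119+ groups and Rnase2a only through D2 Gr1+ and D2 Ter119+ cells, so these genes had to differ between groups. Counts over the members below are a description. So are the p-values of Epx and Rnase2a where a group that passed them is set against one that did not. The same holds for their F tests over the fractions and for tests of how the strains' cell differences differ.

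Prg2, Epx and Ear6 had their highest mean levels in Ter119+ cells of both strains, and Rnase2a had its highest in Gr1+ cells of D2 alone. Averaged over the strains, Prg2 was 13.4-fold and Ear6 13.8-fold higher in Ter119+ cells than in progenitors. Rnase2a was 70.4-fold higher in D2 than in B6 Gr1+ cells and was at or near background in every B6 group. The plot of the 4 genes by array shows these patterns.

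**Figure D1:**
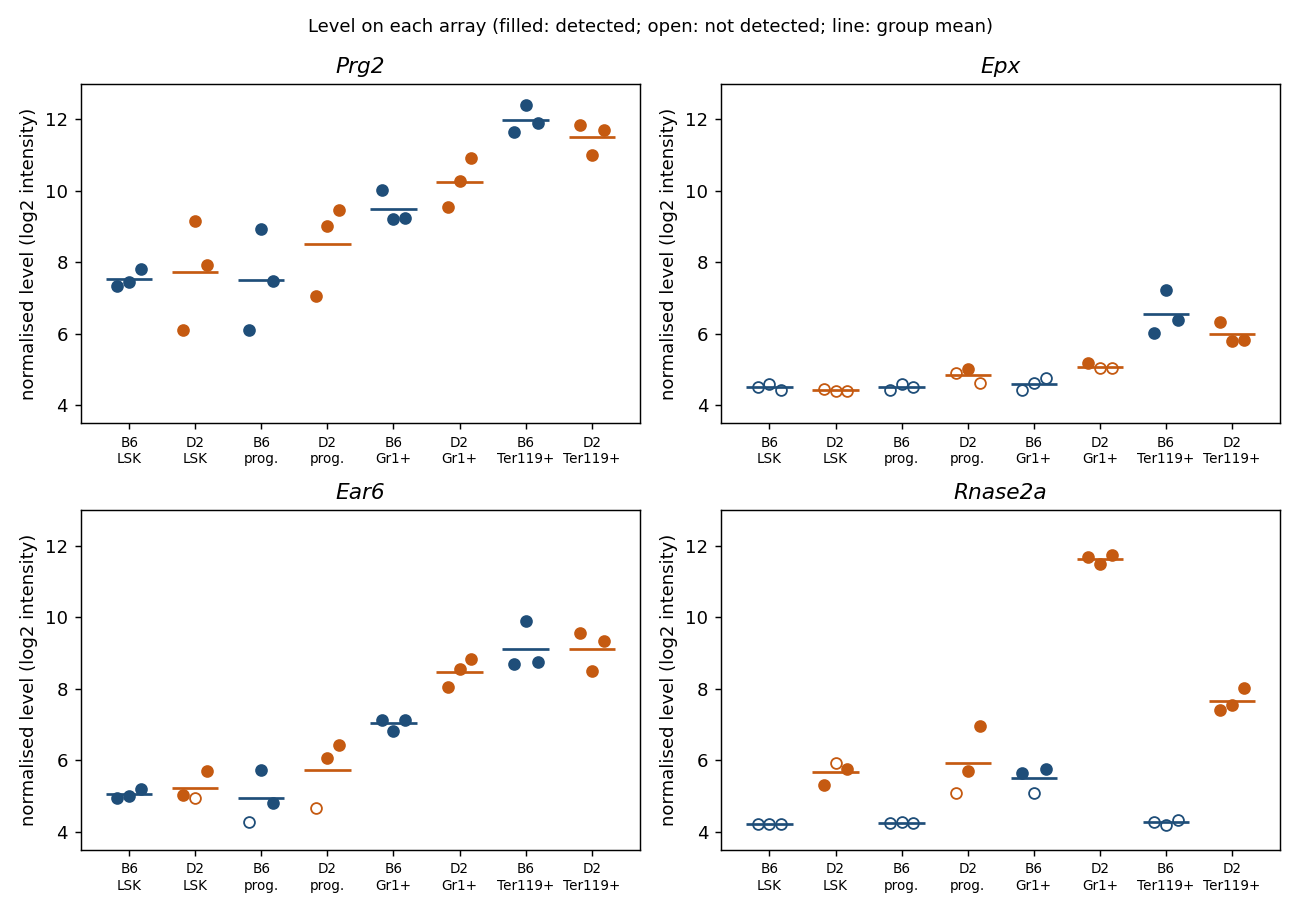
Normalised level (log2 intensity, y axis) of Prg2, Epx, Ear6 and Rnase2a on each of the 24 arrays, by group (x axis, prog. for progenitors), with B6 in blue and D2 in orange. Filled points were detected, open points were not, and lines are means of 3 arrays. Prg2 and Ear6 climb from LSK cells and progenitors through Gr1+ to Ter119+ cells, Epx was detected on all 6 Ter119+ arrays and on 2 others, and Rnase2a stands at 11.48 to 11.73 in D2 Gr1+ cells.

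Prg2 was detected on all 24 arrays. In Ter119+ cells its levels were 11.65, 12.40 and 11.91 in B6 and 11.86, 11.01 and 11.70 in D2. In Gr1+ cells they were 10.02, 9.21 and 9.25 in B6 and 9.54, 10.28 and 10.92 in D2. Every Ter119+ array was above every Gr1+ array, though the lowest of the former (11.01) and the highest of the latter (10.92) nearly touched. In progenitors the levels were 6.12, 8.92 and 7.49 in B6 and 7.06, 9.01 and 9.46 in D2. In LSK cells they were 7.34, 7.47 and 7.80 in B6 and 6.12, 9.17 and 7.92 in D2. The progenitor and LSK groups overlapped throughout, and their replicates scattered widely. The SD reached 1.53 in D2 LSK cells and 1.40 in B6 progenitors, against at most 0.69 in the Gr1+ and Ter119+ groups.

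For Prg2 the difference between Ter119+ cells and progenitors was 3.74 ± 0.47 (SE, 6 arrays of each type, limma adjusted p = 4.83e-07), and that between Gr1+ cells and progenitors 1.86 ± 0.47 (3.63-fold, adjusted p = 0.001265). Gr1+ cells were lower than Ter119+ cells by 1.88 ± 0.47 on the log2 scale (3.69-fold, adjusted p = 0.001486). By strain, that difference was -2.49 ± 0.66 in B6 (limma adjusted p = 0.003479) and -1.27 ± 0.66 in D2, which did not pass (adjusted p = 0.1346). The D2 difference passed when only the groups compared were fitted (limma adjusted p = 0.01702) and without the D2 LSK and D2 progenitor arrays of fewest detected probes (adjusted p = 0.04123). Within B6, Prg2 was 22.2-fold higher in Ter119+ cells than in progenitors, a difference of 4.48 ± 0.66 with an adjusted p of 1.157e-05 from limma. Within D2 it was 8.07-fold higher, a difference of 3.01 ± 0.66 with an adjusted p of 0.0007647 from limma. The 2 strains' differences were not shown to differ (D2 minus B6 of -1.46 ± 0.93, limma adjusted p = 0.6034). The Gr1+ against progenitor difference of Prg2 within a strain passed the test in B6 (1.98 ± 0.66, limma adjusted p = 0.01384) and in D2 (1.74 ± 0.66, adjusted p = 0.02964). It lost that call in both strains under median scaling (limma adjusted p of 0.147 and 0.1298) and 75th percentile scaling (0.07275 and 0.0573). The call was also lost in both without the detection filter (limma adjusted p of 0.08578 and 0.157) and where a 2-fold change was required (0.34 and 0.5374). In D2 it was lost without both dim D2 arrays as well (limma adjusted p = 0.1343). With single arrays left out, the call was lost in B6 without progenitor replicate 1 (limma adjusted p = 0.1213) or Gr1+ replicate 1 (0.05916). In D2 that happened without progenitor replicate 1 (limma adjusted p = 0.2228) or Gr1+ replicate 2 or 3 (0.06523 and 0.1252). In a bulk fraction, fewer cells of a type and less RNA per cell cannot be told apart.

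The dim D2 arrays weigh on the low end of Prg2. On D2 LSK replicate 2 the raw intensity of 126.1 became a normalised level of 9.17, the highest of any LSK array, while raw intensities of 214.3 to 448.2 in B6 LSK cells became 7.34 to 7.80. With all arrays, progenitors and LSK cells did not pass the test for Prg2 (0.37 ± 0.47, limma adjusted p = 0.5679). Without D2 LSK replicate 2 and D2 progenitor replicate 1 the difference was 1.09 with an adjusted p of 0.03195 from limma.

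Epx was detected on all 6 Ter119+ arrays, on 1 D2 Gr1+ array and on 1 D2 progenitor array. Its Ter119+ levels were 6.02, 7.24 and 6.39 in B6 and 6.35, 5.80 and 5.83 in D2. In D2 Gr1+ cells it had 5.18, 5.06 and 5.04, and in D2 progenitors 4.91, 5.01 and 4.63. The other 4 groups, without any detected array, lay between 4.40 and 4.77. No Epx level outside the Ter119+ fraction reached the lowest level within it.

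A bound rather than a fold is given against a group with no detected array, whose arrays were set to their lowest detected level or to the probe's own value if higher. The mean of the brighter group was left as it was, so a bound holds for this background correction and normalisation only. It is not a strict bound where an array of the brighter group was not detected. In B6, Epx was at least 3.42-fold higher in Ter119+ cells than in progenitors (limma adjusted p = 2.12e-07), at least 3.75-fold higher than in LSK cells (adjusted p = 1.19e-07) and at least 3.00-fold higher than in Gr1+ cells (adjusted p = 1.72e-07). Epx was kept through its Ter119+ groups alone, so these p-values describe a difference that the filter favoured. In D2, where 1 of 3 progenitor and 1 of 3 Gr1+ arrays were detected, no fold is given. The fitted difference there was 1.14 ± 0.22 between Ter119+ cells and progenitors (limma adjusted p = 0.0002275) and -0.90 ± 0.22 between Gr1+ and Ter119+ cells (adjusted p = 0.002076). Between Gr1+ cells and progenitors over both strains Epx did not pass (0.17 ± 0.16, limma adjusted p = 0.3542). It passed between Gr1+ and LSK cells (0.38 ± 0.16, limma adjusted p = 0.03875), but with 1 of 12 arrays detected no fold is given, and the call was lost in 15 of the 38 alternative settings that could be run. Among these were the settings without replicate 1 or 3 of B6 or D2 LSK cells, replicate 2 or 3 of B6 Gr1+ cells or any D2 Gr1+ replicate, with limma adjusted p-values from 0.05161 to 0.08755.

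Ear6, a secreted ribonuclease of the family, followed Prg2. In Ter119+ cells its levels were 8.69, 9.88 and 8.76 in B6 and 9.56, 8.49 and 9.33 in D2. In Gr1+ cells they were 7.13, 6.83 and 7.14 in B6 and 8.06, 8.55 and 8.83 in D2. The B6 Gr1+ arrays lay below all Ter119+ arrays and below all D2 Gr1+ arrays, whereas the D2 Gr1+ arrays overlapped the Ter119+ arrays of their strain. Progenitor levels were 4.28, 5.73 and 4.82 in B6 and 4.68, 6.06 and 6.42 in D2, with 2 of 3 arrays detected in each. LSK levels were 4.93, 5.01 and 5.20 in B6 and 5.03, 4.95 and 5.70 in D2, with 3 and 2 arrays detected. Both immature fractions overlapped each other and lay below every Gr1+ array.

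Over both strains Ear6 was higher in Ter119+ cells than in progenitors by 3.79 ± 0.29 (limma adjusted p = 1.993e-10) and in Gr1+ cells than in progenitors by 2.42 ± 0.29 (5.37-fold, adjusted p = 1.08e-07). Gr1+ against Ter119+ cells gave -1.36 ± 0.29 (2.57-fold lower, limma adjusted p = 0.0003111). By strain that difference was -2.08 ± 0.41 in B6 (limma adjusted p = 0.0002007) and -0.65 ± 0.41 in D2 (adjusted p = 0.2269). The test of the difference between the strains did not pass (1.43 ± 0.58, limma adjusted p = 0.2136).

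Rnase2a had another pattern. Its levels in D2 Gr1+ cells were 11.70, 11.48 and 11.73, against 5.65, 5.09 and 5.76 in B6 Gr1+ cells, where 2 of 3 arrays were detected. In raw intensity these were 3210.8, 2862.1 and 2922 in D2 against 121.7, 98.5 and 113.3 in B6. In Ter119+ cells D2 had 7.41, 7.54 and 8.03, all detected, and B6 had 4.29, 4.19 and 4.34, none detected. The strains did not overlap in either fraction. D2 progenitors had 5.10, 5.71 and 6.97 and D2 LSK cells 5.32, 5.92 and 5.77, with 2 of 3 arrays detected in each. The B6 arrays of these fractions all lay between 4.21 and 4.28 with none detected. In both fractions every D2 array was above every B6 array, although the D2 LSK array with 5.92 was the dim replicate 2, on which Rnase2a was not detected.

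Within D2, Rnase2a was 15.7-fold higher in Gr1+ than in Ter119+ cells (3.98 ± 0.30, limma adjusted p = 2.313e-10) and 52.4-fold higher than in progenitors (5.71 ± 0.30, adjusted p = 5.096e-13). Ter119+ cells were 3.33-fold above progenitors in D2 (1.74 ± 0.30, limma adjusted p = 6.489e-05). D2 progenitors and LSK cells did not pass the test (0.26 ± 0.30, limma adjusted p = 0.5976). In B6, by the rule for bounds, Gr1+ cells were 1.65-fold above progenitors (limma adjusted p = 0.001225) and 1.81-fold above Ter119+ cells (adjusted p = 0.001812). These are not strict bounds, since only 2 of the 3 B6 Gr1+ arrays were detected. Both B6 calls were lost under median scaling (limma adjusted p = 0.05773 and 0.08532) and where a 2-fold change was required. Prg2, Epx and Ear6 had the opposite order in B6, each being lower in Gr1+ than in Ter119+ cells.

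Counted over the members and averaged over the strains, 4 of the 4 measured genes were higher in Ter119+ cells than in progenitors and 3 in Gr1+ cells than in progenitors, where 24.4% and 29.1% of all 12668 probes were called higher and 54.6% and 66.9% were called in either direction. For Rnase2a the Ter119+ difference was 0.88 ± 0.21 over both strains but 0.02 ± 0.30 in B6 (limma adjusted p = 0.9698), where no array of either fraction was detected. Its averaged call was lost under median scaling (limma adjusted p = 0.07821) and where a 2-fold change was required. Against LSK cells 4 were called in Ter119+ cells and 4 in Gr1+ cells, where 54% and 64.4% of all probes were called. In B6 the Ter119+ against LSK difference of Rnase2a was 0.05 ± 0.30 (limma adjusted p = 0.9068). Between Gr1+ and Ter119+ cells 4 were called (Prg2, Epx and Ear6 lower, Rnase2a higher in Gr1+ cells), against 56.9% of all probes. Between progenitors and LSK cells limma called 0 of the 4 genes, with 0 at an unadjusted p under 0.05, against 39.8% of all probes. Calls were the majority of probes in most of these comparisons, so the counts do not set the members apart. Median scaling moved the share of called probes that were higher in Ter119+ cells from 44.7% to 62.7% against progenitors and from 48.5% to 68.8% against LSK cells.

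The strain comparison asked where D2 and B6 cells of 1 fraction differ. Rnase2a was higher in D2 in all 4 fractions, and Ear6 passed the test in Gr1+ cells. Of the 4 members, limma called 1 in LSK cells (7.67% of all probes called), 1 in progenitors (5.33%), 2 in Gr1+ cells (5.84%) and 1 in Ter119+ cells (15.4%). Median scaling shifted the median of all probes from -0.09 to -0.81 in LSK cells, from -0.02 to -0.42 in progenitors and from -0.01 to -0.41 in Ter119+ cells. In Gr1+ cells it moved only from 0.00 to -0.09. The share of called probes that were higher in D2 fell from 40.8% to 27.4% in Gr1+ cells and from 46.5% to 11.5% in Ter119+ cells with that scaling, and from 32.5% to 3.86% in LSK cells and from 37.8% to 8.12% in progenitors.

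Rnase2a in Gr1+ cells differed between D2 and B6 by 6.14 ± 0.30 (70.4-fold, 3 arrays against 3, limma adjusted p = 3.857e-13). In Ter119+ cells it was at least 8.11-fold higher in D2 (fitted difference 3.39 ± 0.30, limma adjusted p = 1.826e-08). By the same rule it was 2.22-fold higher in progenitors (limma adjusted p = 0.0005975) and 2.04-fold higher in LSK cells (adjusted p = 0.002312). These values are not strict bounds, since only 2 of 3 D2 arrays were detected in each fraction. Over the alternative settings the fitted difference of Rnase2a fell as low as 1.59 in Ter119+ cells, 0.65 in progenitors and 0.53 in LSK cells. In those immature fractions the call was lost under median scaling, with adjusted p-values of 0.08027 in progenitors and 0.1964 in LSK cells. Without background correction the Gr1+ difference was 4.68. The strain difference of Rnase2a varied between the 4 fractions (moderated F test of limma, adjusted p = 1.944e-07, where 5.23% of all probes were called). The same test gave an adjusted p of 0.3755 for Ear6, 0.151 for Epx and 0.7294 for Prg2.

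**Figure D2:**
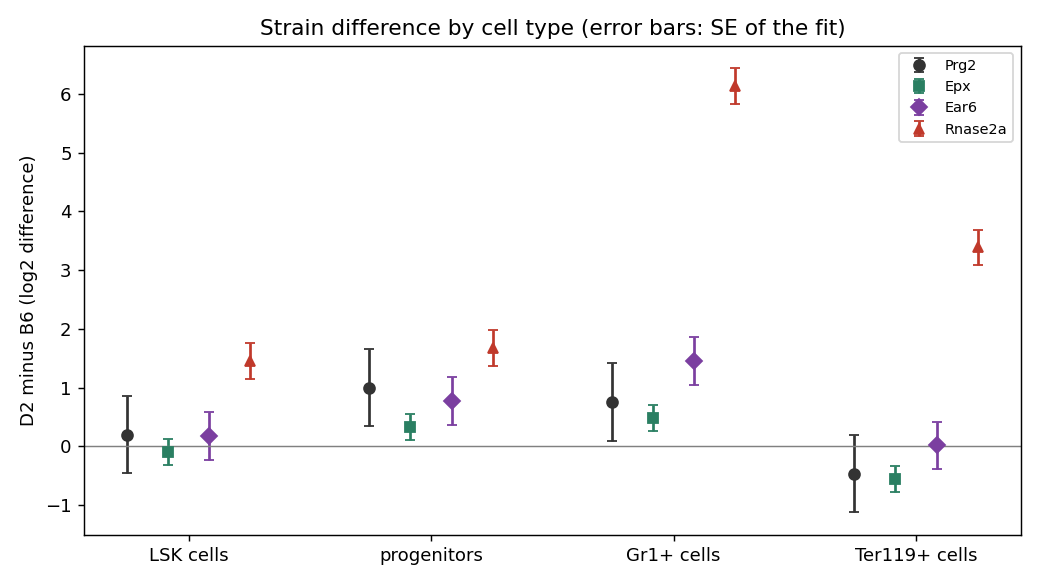
Difference between D2 and B6 (log2, y axis) of the 4 genes in each fraction (x axis), with the SE of the fit as error bars and 3 arrays in each group. Rnase2a lies above 0 in all 4 fractions and reaches 6.14 in Gr1+ cells, while the other genes lie between -0.56 and 1.45.

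Ear6 was 2.73-fold higher in D2 than in B6 Gr1+ cells (1.45 ± 0.41, limma adjusted p = 0.03273). The call did not hold under median scaling (1.37, limma adjusted p = 0.3675) or 75th percentile scaling (1.41, adjusted p = 0.09178). It was lost too when B6 Gr1+ replicate 1, 2 or 3 or D2 Gr1+ replicate 2 or 3 was left out, with limma adjusted p-values of 0.07739, 0.1314, 0.07846, 0.1094 and 0.1729. In Ter119+ cells the Ear6 difference was 0.02 ± 0.41 (limma adjusted p = 0.9904).

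Prg2 passed no strain test. Its D2 minus B6 difference was 0.75 ± 0.66 in Gr1+ cells (limma adjusted p = 0.8468), -0.47 ± 0.66 in Ter119+ cells (adjusted p = 0.7146), 1.00 ± 0.66 in progenitors (adjusted p = 0.6414) and 0.20 ± 0.66 in LSK cells (adjusted p = 0.9179). Epx in Ter119+ cells gave -0.56 ± 0.22 (limma adjusted p = 0.09659). That value passed under median scaling (-1.12, limma adjusted p = 0.005796), where the median of all probes moved from -0.01 to -0.41. It passed too under 75th percentile scaling (-0.93, limma adjusted p = 0.00714) and with array weights (-0.48, adjusted p = 0.008795). Leaving out replicate 1 of B6 or of D2 Ter119+ cells also gave a call (-0.82 and -0.73, limma adjusted p = 0.01233 and 0.03707). In the other 34 of 39 settings it stayed uncalled.

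The members' own likeness was described over the 24 arrays, which fall into 8 groups, so the correlations mostly reflect the group means. Prg2 and Ear6 had r = 0.9413, Prg2 and Epx 0.814, and Ear6 and Epx 0.8262. Rnase2a had r = 0.4948 with Ear6, 0.3494 with Prg2 and 0.0921 with Epx. Of 7725 other named genes, those most like Prg2 were Prg3, the second major basic protein (r = 0.9581), Cd74, the invariant chain of MHC class II (0.907), Ear3 (0.9069), Marchf2 (0.9042) and Prss34, a protease of basophils and mast cells (0.9031). Those most like Ear6 were Vcam1, an adhesion molecule found on marrow macrophages (r = 0.9486), Fam214b, Carhsp1, Prg3 and Ear3. Epx was most like Hagh (r = 0.9549), Tab3, Dusp8, Stradb and Ache, which is acetylcholinesterase. Rnase2a was most like Fgr, a Src-family kinase of myeloid cells (r = 0.9426), Ifi202b, an interferon-inducible gene (0.9371), Lpcat2, Has2 and Cap1. The mean level of Fgr was 7.98 in D2 Gr1+ cells and 4.26 in B6 Gr1+ cells, and that of Ifi202b 5.92 and 4.26.

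Other eosinophil genes were read from a list of 18 granule and surface genes, of which 12 had a probe and 7 a kept one. In Ter119+ cells against progenitors 2 of the 7 were higher and 1 lower, with a median of 0.33 against -0.08 over all probes. Of all probes 24.4% were called higher there and 54.6% in either direction. Prg3 rose by 2.72 ± 0.24 (limma adjusted p = 2.588e-09), and Adgre1, the macrophage and eosinophil surface protein F4/80, by 0.65 ± 0.14 (adjusted p = 0.0005189). Ltc4s, the enzyme that makes leukotriene C4, was lower (-0.50 ± 0.19, limma adjusted p = 0.0283). In Gr1+ cells against progenitors 5 of the 7 were higher and 1 lower, with a median of 1.34 against -0.11 over all probes. Of all probes 29.1% were called higher there and 66.9% in either direction. The largest there was Csf2ra, the alpha chain of the GM-CSF receptor (3.29 ± 0.21, limma adjusted p = 2.111e-12), which neutrophils and monocytes carry too. Siglecf, Ccr3 and Il5ra, the Siglec, eotaxin receptor and interleukin-5 receptor that define eosinophils at the surface, were detected on 0 of the 24 arrays.

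Prg3 lies close to Prg2, on chromosome 2 at 84988196 to 84996559. Its mean level was 7.89 ± 0.51 (SD) in B6 and 7.54 ± 0.37 in D2 Ter119+ cells, 5.50 ± 0.28 and 6.31 ± 0.51 in Gr1+ cells, and at most 5.15 in the immature groups. Like Prg2 it was lower in Gr1+ than in Ter119+ cells, by 1.81 ± 0.24 (limma adjusted p = 9.366e-07), and no Prg3 array of Gr1+ cells reached the Ter119+ range.

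Of 22 other members of the ribonuclease A family, 17 had a probe and 6 a kept one. In Gr1+ cells against progenitors 5 of the 6 were higher and none lower (median 1.21, against -0.11 over all probes), and in Ter119+ cells against progenitors 4 were higher and 0 lower (median 0.73, against -0.08). Of all probes, 29.1% and 24.4% were called higher in these comparisons and 66.9% and 54.6% in either direction. The kept Ear3 probe had means of 9.18 ± 0.23 in B6 and 10.37 ± 0.18 in D2 Gr1+ cells, and of 10.07 ± 0.85 and 10.69 ± 0.24 in Ter119+ cells. It was 19.7-fold higher in Ter119+ cells than in progenitors (4.30 ± 0.35, limma adjusted p = 5.389e-10) and 12.9-fold higher in Gr1+ cells (3.69 ± 0.35, adjusted p = 2.559e-09). The other Ear3 probes, 2 in number, disagreed, since they were detected on 1 and 0 of the 24 arrays.

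Rnase6 rose by 2.29 ± 0.19 in Gr1+ cells against progenitors (limma adjusted p = 3.909e-10) and by 1.93 ± 0.19 in Ter119+ cells (adjusted p = 1.647e-08). Rnase4 was the member of this list called between the strains in Gr1+ cells, where it was higher in D2 by 1.37 ± 0.18 (limma adjusted p = 7.18e-06). Rnase2b and Ear14, which lie near Rnase2a on chromosome 14, were detected on 0 of the 24 arrays, so the D2 signal was not seen on their probes. The Ear10 probe was detected on 1 D2 Gr1+ array and on 2 B6 and 3 D2 Ter119+ arrays. The ribonuclease inhibitor Rnh1 had no listed probe.

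Of 13 transcription factors known from the eosinophil lineage, 12 had a probe and 11 a kept one. In Gr1+ against Ter119+ cells 7 were higher and 3 lower (median 1.35, against -0.09 over all probes). Of all probes 56.9% were called in this comparison, and 45.8% of those were higher in Gr1+ cells. Calls in both directions were thus common to all probes and do not set this list apart. Cebpb was higher by 2.99 ± 0.19 (limma adjusted p = 4.851e-12), Cebpe, needed for eosinophil and neutrophil granules, by 2.51 ± 0.23 (adjusted p = 2.947e-09), and Trib1 and Id1 by 2.49 ± 0.21 and 2.24 ± 0.14. Gata2 was lower (-2.81 ± 0.20, limma adjusted p = 4.913e-11), and Gata1, which eosinophils share with erythroid cells, mast cells and megakaryocytes, was lower too (-1.60 ± 0.23, adjusted p = 3.055e-06). Between the strains 0 of the 11 were called in Gr1+ cells by limma, 3 at an unadjusted p under 0.05, and the lowest adjusted p was that of Spi1 (0.81 ± 0.24, adjusted p = 0.05064).

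Genes of other cell types were also high in the Ter119+ cells in which Prg2, Epx and Ear6 were high. In Ter119+ cells against progenitors 24.4% of all probes were called higher and 54.6% in either direction, with a median of -0.08. Among 8 kept basophil and mast cell genes, 6 were higher in Ter119+ cells than in progenitors and 1 lower (median 0.95), with Prss34 higher by 5.45 ± 0.27, Mcpt8, a basophil protease, by 2.16 ± 0.22 and Fcer1a by 1.80 ± 0.21. The summed level of that list was 4309.90 to 4795.20 in B6 and 2860.53 to 5691.02 in D2 Ter119+ arrays, against 2871.42 to 3515.40 and 1296.25 to 1514.30 in progenitors. In Gr1+ arrays it was 11209.58 to 12355.12 in B6 and 3022.69 to 3607.19 in D2. Most of that Gr1+ sum came from 1 gene, Hdc, histidine decarboxylase. Hdc was higher in Gr1+ cells than in progenitors by 3.59 ± 0.28 over both strains, and its mean level was 13.46 in B6 and 11.53 in D2 Gr1+ cells. The mean log2 level of the whole list was 6.52 in B6 and 6.11 in D2 Gr1+ cells, against 7.60 and 7.65 in Ter119+ cells.

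The counts that follow stand against 24.4% of all probes called higher in this comparison, 54.6% called in either direction and a median of -0.08. All 4 kept B cell genes were higher in Ter119+ cells than in progenitors (median 2.71), with Cd79b, part of the B cell receptor, higher by 5.17 ± 0.17 and Vpreb1 by 3.69 ± 0.30. Their summed level was 3018.33 to 6214.28 over the Ter119+ arrays and at most 471.32 on any other array. Among 11 kept monocyte and macrophage genes 9 were higher and 1 lower in Ter119+ cells than in progenitors (median 1.51), with a summed level of 913.11 to 1327.37 in Ter119+ arrays and 1998.75 to 2355.32 in Gr1+ arrays. Among 11 kept late neutrophil genes 10 were higher (median 2.74), with a summed level of 37186.44 to 58447.94 in Ter119+ arrays and 143286.91 to 158106.94 in Gr1+ arrays. Of 5 kept T and NK cell genes 4 were higher and 1 lower (median 1.27), but the summed level was no higher in Ter119+ arrays (329.52 to 810.51) than in progenitor arrays (447.67 to 1866.85). The part of these other cells in the Ter119+ levels of the eosinophil genes was not tested.

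**Figure D3:**
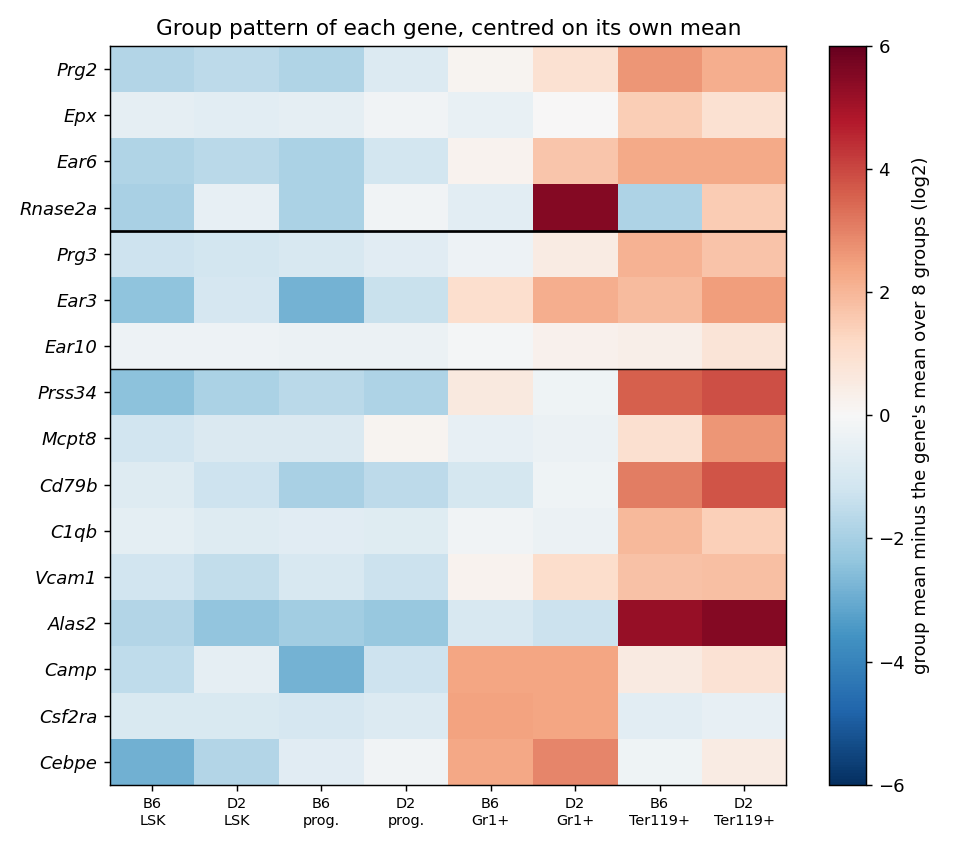
Mean level of each gene in each group minus that gene's own mean over the 8 groups (colour, log2), with groups on the x axis and genes on the y axis. The rows above the thick line are the members, followed by related granule genes and then by genes of other cell types. The last rows, Csf2ra and Cebpe, come from the lists of eosinophil surface genes and transcription factors. Prg2, Epx, Ear6 and Prg3 are highest in the Ter119+ columns, as are Prss34, Cd79b, C1qb and Alas2, while Rnase2a is highest in D2 Gr1+ cells and Camp, Csf2ra and Cebpe are highest in the Gr1+ columns. The genes of other cell types are individual members and do not stand for their lists. In Gr1+ against Ter119+ cells, 6 of 11 kept monocyte and macrophage genes were higher and 5 lower. Among 8 kept basophil and mast cell genes 1 was higher and 6 lower there, where 56.9% of all probes were called.

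In the strain comparison of Gr1+ cells, 5.84% of all probes were called. Of the late neutrophil genes 1 of 11 was higher in D2 and 0 lower (median 0.07, against 0.00 over all probes), of the basophil and mast cell genes 1 of 8 was lower (Hdc, -1.94 ± 0.39, limma adjusted p = 0.001828), and of the eosinophil granule and surface genes limma called 0 of 7, with 2 at an unadjusted p under 0.05. None of 4 B cell genes was called by limma, with 1 at an unadjusted p under 0.05. Of the monocyte and macrophage genes 1 of 11 was higher (Vcam1, 0.87 ± 0.17, limma adjusted p = 0.001093) and 1 lower (Ccr2, -1.23 ± 0.21, adjusted p = 0.0002179). Of 5 T and NK cell genes 1 was higher and 2 lower. These were subunits of the T cell receptor complex that moved in opposite directions, Cd3d (3.17 ± 0.24, limma adjusted p = 9.502e-10), Cd3e (-1.73 ± 0.19, adjusted p = 3.828e-07) and Cd3g (-0.54 ± 0.14, adjusted p = 0.02028). Prg3 in D2 against B6 Gr1+ cells gave 0.81 ± 0.34 (limma adjusted p = 0.2525) and Ear3 1.19 ± 0.49 (adjusted p = 0.236), both with the sign of Ear6 and Rnase2a and both short of an adjusted p under 0.05. Their unadjusted p-values from limma were 0.02709 and 0.0242.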

How the data were processed

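The members and gene lists were chosen with earlier results of these data known. Total RNA was hybridised to 24 arrays. The authors deposited raw probe intensities (67.9 to 46120), without background subtraction or normalisation. GenomeStudio, with no version, is the tool in the submitters' processing notes. The deposited detection column is, per the file headers, a p-value, but it is a fraction that rises with intensity, so 1 minus it was read as the detection p. The authors' series matrix holds log2 values (largest difference of 0.00113 from the quantile-normalised log2 raw values) and was an alternative only. The 24 deposited call columns were not used.

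Intensities were background-corrected with the normal-exponential model (offset 16) and quantile-normalised in limma 3.58.1 (R 4.3.3). Probes were kept where all 3 arrays of some group had a detection p under 0.01, which left 12668 probes and 7925 genes. The supplied annotation lists 34903 probes, 34885 of them with 1 symbol and 18 with several, and leaves 10378 unnamed. Each probe was fitted with 8 group means (16 residual degrees of freedom, prior 6.28). Moderated two-sided tests were adjusted by Benjamini and Hochberg over all kept probes and called under 0.05. The fit was tested on simulated data. Named genes were every member, up to 4 called genes of largest difference in each direction per list, and the 5 genes most correlated with each member. Genes named outside this rule (Rnase2b, Ear14, Siglecf, Ccr3, Il5ra, Spi1, and Alas2, Camp and C1qb in a plot) were chosen after their values were seen. Where a list gene had several kept probes, that with the highest mean was used. Promoters came from RefSeq (GRCm38.p6), aligned with Biopython 1.88. Figures used matplotlib 3.10.9 in Python 3.11.15. The number of arrays limits the precision.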

Additional observations from a re-analysis of the deposited data

Results flagged for a closer look

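The results singled out all concern Rnase2a, whose difference between the strains was not the same in every fraction. The moderated F test over the 4 fractions gave a limma adjusted p of 1.944e-07. Rnase2a was kept only through D2 Gr1+ and D2 Ter119+ cells, so the p-values given here describe differences that the filter favoured. Between Gr1+ cells and progenitors, the D2 difference exceeded the B6 difference of Rnase2a by 4.47 ± 0.43 (SE, limma adjusted p = 6.961e-07), and between Gr1+ and LSK cells by 4.69 ± 0.43 (adjusted p = 2.486e-07). Between Gr1+ and Ter119+ cells it exceeded it by 2.75 ± 0.43 (limma adjusted p = 0.0003542). Between Ter119+ cells and progenitors the excess was 1.72 ± 0.43 (limma adjusted p = 0.03483), and between Ter119+ and LSK cells 1.94 ± 0.43 (adjusted p = 0.009639). The Ter119+ against progenitor excess lost its call in 16 of 38 alternative settings, with limma adjusted p-values of 1 under median scaling, 0.4806 under 75th percentile scaling, 0.1398 without the detection filter, 0.1602 with only the groups compared and 1 where a 2-fold change was required. It also lost it without both dim D2 arrays (0.05817), and without any replicate of B6 progenitors or B6 Ter119+ cells, replicate 1 or 2 of D2 progenitors or replicate 2 or 3 of D2 Ter119+ cells (limma adjusted p from 0.05686 to 0.1229). The Ter119+ against LSK excess lost it under median scaling (0.282), 75th percentile scaling (0.08625) and the 2-fold requirement (1). The Gr1+ against Ter119+ excess lost it under that requirement alone (0.09991), and the other 2 kept it in all 38 settings. In B6 the LSK, progenitor and Ter119+ levels of Rnase2a were not above background, so these fitted sizes depend on the background level. A strain variant under the probe was not tested.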

How the results depend on the processing

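Over 39 alternative settings, 1627 of 1679 single-gene values in 11 comparisons kept their direction and side of the threshold, 37 lost a call, 15 gained one and 0 called values reversed. Values within a strain and differences between the strains' cell contrasts are not in this tally. Counts of called members moved as follows. Except where single arrays were left out, a change of 1 gene from or to a count of 3 or more is not listed. Of these, the required 2-fold change lost Prg2 for Gr1+ cells against progenitors (limma adjusted p = 0.1706). It also lost Epx for Gr1+ and Rnase2a for Ter119+ cells against LSK cells, and Rnase2a for Ter119+ cells against progenitors. Median scaling lost Rnase2a for Ter119+ cells against progenitors (limma adjusted p = 0.07821) and Epx for Gr1+ against LSK cells (0.2642). Requiring detection on every array compared leaves fewer probes by construction and gave 0 in the strain comparisons of LSK cells, progenitors and Ter119+ cells, 1 in Gr1+ cells, 1 for Gr1+ or Ter119+ cells against progenitors or LSK cells, 2 for Gr1+ against Ter119+ cells and 0 in the F test. Median scaling gave strain counts of 0 in LSK cells, 0 in progenitors, 1 in Gr1+ and 2 in Ter119+ cells. The 75th percentile gave 0 in LSK, 1 in Gr1+ and 2 in Ter119+ cells, and 2 in the F test. A required 2-fold change gave 0 in LSK cells, 0 in progenitors, 1 in Gr1+ cells and 1 for Gr1+ against Ter119+ cells. No detection filter gave 1 in Gr1+ cells, and fitting only the groups compared gave 0 in progenitors. Array weights gave 2 in progenitors, 2 in Ter119+ cells, 1 for progenitors against LSK cells and 4 in the F test. They also added Epx to the strain calls in Gr1+ cells (limma adjusted p = 0.03583). Leaving out both dim D2 arrays gave 2 in progenitors and 1 for progenitors against LSK cells. The causes of these moves were not tested. With each array left out in turn, the strain count ran from 1 to 2 in Gr1+ cells and from 1 to 2 in Ter119+ cells (2, adding Epx, without replicate 1 of B6 or of D2), the F test count from 1 to 2 (without B6 Ter119+ replicate 1), and the Gr1+ against LSK count from 3 to 4, while the other 7 did not move. Where this leaves 2 arrays in a group, the fit pools the spread. Whether replicate numbers pair the samples was not settled. With group means taken off, same-numbered arrays of different groups had r over 0.1 in 37 of 84 pairs (-0.38 to 0.366, median 0.0771). Arrays of different numbers were not compared in this way. With the replicate block the counts were 1, 1, 2 and 1 in the strain comparisons, 0 for progenitors against LSK cells, 3 for Gr1+ against progenitors and 4 in the other cell comparisons. Levels near background, where Epx and B6 Rnase2a lie, limit what the arrays can order.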
